A study of Mus musculus with 4 samples.

Results

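The genes described here encode the proteins of the cytosolic ribosome. They were chosen by name: every symbol of the form Rpl or Rps with a number, the Rplp genes and Rpsa, without symbols marked as pseudogenes and without the Rps6k kinases, with at least 100 unique molecular identifiers (UMIs, one per captured transcript) over the 4 libraries. The rule found 91 of 30408 gene symbols, 37 named for the small subunit and 54 for the large one. Of these, 77 are the usual ribosomal protein genes and 14 are paralogues, retrocopies kept under a gene name, or Rps19bp1, which encodes a protein that binds Rps19 and matches by its name alone. All 91 passed the minimum. The lowest were Rpl39l with 115 UMIs, Rpl3l with 135, Rpl24 with 149 and Rpl23a with 151, and no candidate fell short of it.

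Cells came from tumours of MB49, a mouse bladder carcinoma line of male origin, grown in male and in female mice. Live cells were sorted into a CD45-positive (leukocyte) and a CD45-negative fraction, and each of the 4 combinations of host sex and fraction gave 1 BD Rhapsody single-cell library, from a study of how immunity relates to sex differences in tumour growth. The labels give no treatment, genotype, host strain, age, or number of mice or tumours per library. With 1 library per group no test was possible, intervals cover counting error only, and host sex cannot be told apart from any other difference between 2 libraries. The male and female CD45-positive libraries held 5771 and 5169 barcodes, and the male and female CD45-negative libraries 6023 and 5152. Total UMIs per library were 37705608 to 62273035, and 3905 to 5496 cells per library passed the depth and mitochondrial filters. Barcodes were numbered anew in each library, so barcodes shared between libraries could not be counted.

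A ribosome is built from 2 subunits, in which ribosomal RNA carries out decoding and peptide bond formation and the proteins fold, stabilise and regulate the particle. The protein genes are transcribed in nearly every cell, are made in matching amounts, and many of their mRNAs begin with a pyrimidine tract that couples their translation to mTOR signalling. Mature neutrophils are known for little protein synthesis, and lymphocytes build up ribosomes when they grow. The mouse genome carries many processed copies of these genes, so that a read can match more than 1 place.

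Cell types were set from marker genes, with no ribosomal gene used, and each name below is that of a marker gate. Gated cells numbered 4035 and 3420 in CD45-positive samples of male and female hosts, and 5042 and 3705 in CD45-negative ones. The macrophage gates carried 21120 and 18230 CPM (UMIs of a gene over all UMIs of the gate, scaled to parts per 1e6) of the 8 macrophage markers in male and female tumours, and the tumour-cell gates 3710 and 4524 CPM of the 9 tumour markers with Ptprc at 0 by construction. Tumour cells also carried 4045 and 3805 CPM of the 6 fibroblast markers, against 70360 and 78030 CPM in the fibroblast gates. The mature dendritic gate held 6038 CPM of fibroblast markers in the female library and 278 CPM in the male one, and the classical monocyte gate 1494 and 8.18 CPM. C1q transcripts of macrophages were found in every immune gate, at 463 to 1250 CPM in lymphocytes against 9802 to 11530 CPM in macrophages.

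The sequences that matter most for reading these counts are those of near-identical family members. Rps3a1 and its copy Rps3a2 differed at 4 of 792 coding bases (99.5% identity), and a stretch that holds 3 of these 4 differences, coding bases 519 to 668, is shown with the differing bases in capitals. The substitutions from Rps3a1 to Rps3a2, counted from 1 at the first coding base, were T216C, T534C, A645T and T668C. Both come from the GENCODE M21 transcripts of mm10, where Rps3a1 is a protein-coding gene on the minus strand at chr3:86137940-86142702 and Rps3a2 a processed pseudogene on the minus strand at chr14:88123017-88123808.
Rps3a1: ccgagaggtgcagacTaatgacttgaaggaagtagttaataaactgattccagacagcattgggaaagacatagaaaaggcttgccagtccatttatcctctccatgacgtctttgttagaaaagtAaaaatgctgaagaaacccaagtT
Rps3a2: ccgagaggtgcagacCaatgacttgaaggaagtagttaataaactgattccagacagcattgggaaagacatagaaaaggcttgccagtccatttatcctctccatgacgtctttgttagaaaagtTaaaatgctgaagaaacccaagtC

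Rps27 (minus strand, chr3:90212522-90213651) and Rps27rt (minus strand, chr9:114982366-114982739) had the same 252 coding bases, so how counts were split between them is uncertain. Their paralogue Rps27l (plus strand, chr9:66946086-66949516) differed at 60 of 252 bases (76.2% identity), spread along the whole sequence, and can be counted apart. Capitals mark the bases that differ between Rps27 and Rps27l.
Rps27: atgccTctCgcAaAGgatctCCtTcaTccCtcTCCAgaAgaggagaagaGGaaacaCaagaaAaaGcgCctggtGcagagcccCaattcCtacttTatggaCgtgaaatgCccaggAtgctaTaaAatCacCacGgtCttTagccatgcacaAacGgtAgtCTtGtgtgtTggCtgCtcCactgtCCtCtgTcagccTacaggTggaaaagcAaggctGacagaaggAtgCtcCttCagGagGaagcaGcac
Rps27l: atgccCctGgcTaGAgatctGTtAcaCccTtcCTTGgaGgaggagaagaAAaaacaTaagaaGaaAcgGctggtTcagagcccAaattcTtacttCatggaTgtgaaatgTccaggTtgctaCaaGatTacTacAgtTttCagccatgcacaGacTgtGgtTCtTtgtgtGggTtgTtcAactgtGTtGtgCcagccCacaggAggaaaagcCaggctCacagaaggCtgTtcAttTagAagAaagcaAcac

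Rps4x, the X-linked gene of a small-subunit protein (minus strand, chrX:102184941-102189394), and Rps4l, annotated as a transcribed processed pseudogene (plus strand, chr6:148354656-148355598), differed at 161 of 789 bases (79.6% identity). Coding bases 484 to 603 are shown, with the differences in capitals, because Rps4l had the largest departure from the family described below.
Rps4x: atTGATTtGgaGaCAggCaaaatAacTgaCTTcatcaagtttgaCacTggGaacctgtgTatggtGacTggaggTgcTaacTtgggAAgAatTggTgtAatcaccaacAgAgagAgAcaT
Rps4l: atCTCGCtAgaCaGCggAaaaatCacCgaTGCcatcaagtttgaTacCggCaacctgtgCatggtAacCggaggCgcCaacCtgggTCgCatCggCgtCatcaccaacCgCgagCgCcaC

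The counts of the 91 genes were very unequal. Together they held 7673578 UMIs, and the 10 genes with most UMIs, among them Rps26, Rps9, Rpl41, Rps4x, Rps3, Rps14, Rpl37rt, Rps24 and Rpl4, held 43.7% of them. Rps26, a small-subunit protein near the mRNA exit, led with 509056 UMIs or 6.63% of the family. At the other end, 33 genes with fewer than 10000 UMIs each held 1.43%. UMI counts were not divided by gene length, so these are shares of captured molecules as assigned, and not levels of mRNA per length.

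The low counts fell on genes whose coding sequence is also found elsewhere. Coding sequences were cut into all 75-base pieces, and for each of the 77 usual genes the share of pieces found in any other annotated transcript was set beside its UMIs. The 26 genes whose whole coding sequence recurred had a median of 3305 UMIs, and 23 of them had fewer than 20000. The 37 genes that shared at least 50% but not all of it had a median of 64926 UMIs, and the 14 that shared less had a median of 189934 with none under 20000. Across these 77 genes Spearman's rho was −0.76, a description over genes that share libraries. Rps16 held 4380 UMIs, while the other genes that hold its pieces, Rps16-ps2 among them, held 272269. Rpl38 held 5719, and the genes that hold its pieces, Rpl38-ps2 among them, 249029. Rpl41, whose short coding sequence recurs in full, was an exception with 344104 UMIs. Rps3 shared no piece with any other gene and held 314828 UMIs. Symbols marked as ribosomal protein pseudogenes, 232 of them, held 1752901 UMIs in all. The sources used here do not give how reads with several matches were assigned, so a low count of a gene with a full-length copy says nothing of its expression.

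**Figure D1:**
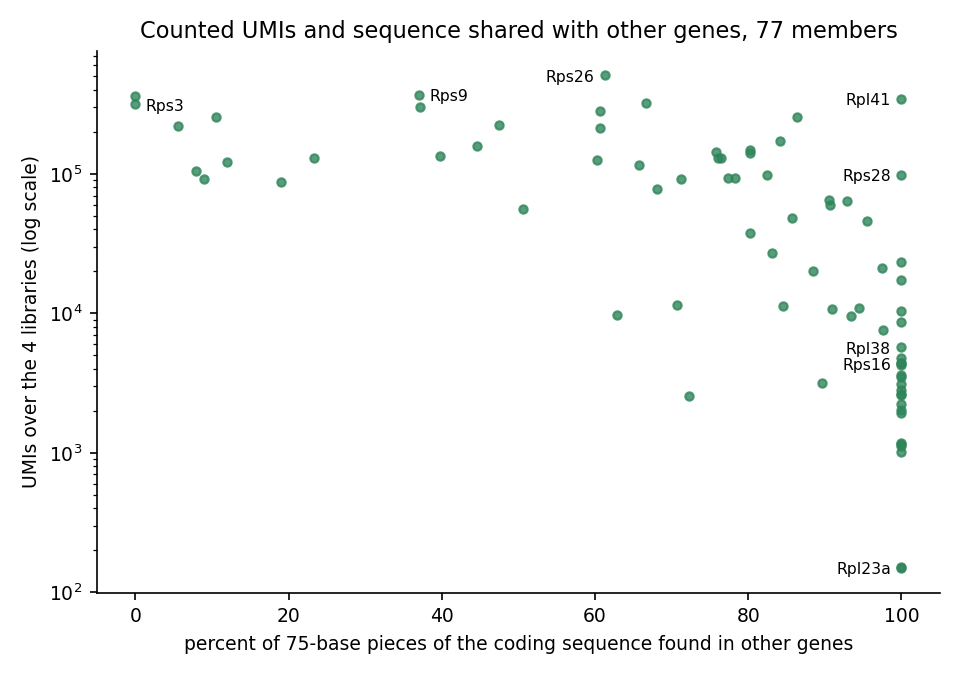
UMIs of each of the 77 usual ribosomal protein genes over the 4 libraries (vertical log axis) against the percent of the 75-base pieces of its coding sequence that other annotated transcripts also hold (horizontal axis), 1 point per gene. Genes that share under 50% all lie above 20000 UMIs, while 23 of the 26 whose whole sequence recurs lie below it.

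The share of UMIs taken by the family differed most between cell types. It was highest in NK cells, at 7.40% (95% exact Clopper-Pearson interval 7.34 to 7.46, 146 cells) in male and 7.01% (6.93 to 7.10, 88 cells) in female tumours. CD8 T cells followed with 7.11% (327 cells) and 6.37% (105 cells), and CD4 T cells with 5.97% (199 cells) and 5.73% (142 cells). Regulatory T cells reached 5.61% in the male library (168 cells), and the 47 female cells, too few to be compared, 4.91%. NK, CD8 and CD4 T cells of either host thus had higher shares than every myeloid gate and the tumour cells, while female regulatory T cells lay under the 4.95% of the 21 female type 1 dendritic cells. The quartiles of single cells overlapped between neighbours in this order: the middle 50% of male NK cells lay between 6.66 and 8.86% and that of male CD8 T cells between 5.94 and 8.74%.

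Dendritic cells, monocytes, macrophages and tumour cells lay lower and close together. Type 2 dendritic cells had 5.45% in male (154 cells) and 4.73% in female tumours (79 cells), and mature dendritic cells, which carry antigen to lymph nodes, 5.25% (140 cells) and 4.59% (57 cells). Type 1 dendritic cells had 5.00% in the male library (184 cells) and 4.95% in 21 female cells. Classical monocytes had 4.30% (100 cells) and 4.06% (263 cells). Macrophages, the most numerous immune gate, had 3.86% (2088 cells) and 4.27% (2486 cells), and MB49 tumour cells 4.15% (5028 cells) and 3.78% (3688 cells). The tumour-cell share was thus 1.07 times that of macrophages in male tumours and 0.886 times in female tumours. Fibroblast gates held 14 and 17 cells, with 3.46 and 3.40%.

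Neutrophils stood far below every other gate, with 1.04% (1.02 to 1.06, 529 cells) in male and 1.27% (1.22 to 1.32, 132 cells) in female tumours. The NK share was 7.11 times (6.95 to 7.29) the neutrophil share in the male and 5.51 times (5.29 to 5.75) in the female library, and the macrophage share 3.71 and 3.35 times. Neutrophil cells were also the shallowest, with a median of 1286 and 1254 UMIs, and their 20 most abundant other genes took 22.3 and 18.1% of UMIs, against 9.12 to 20.6% in the other gates. With those 20 genes left out of each denominator, neutrophils still had 1.34 and 1.55% and NK cells 8.36 and 7.97%. In male neutrophils the 25% of cells with fewest UMIs had 0.941% and the 25% with most had 1.35%, and in female neutrophils 1.26 and 1.36%. In no other gate with at least 50 cells in a library did such a depth class fall under 3.51%.

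**Figure D2:**
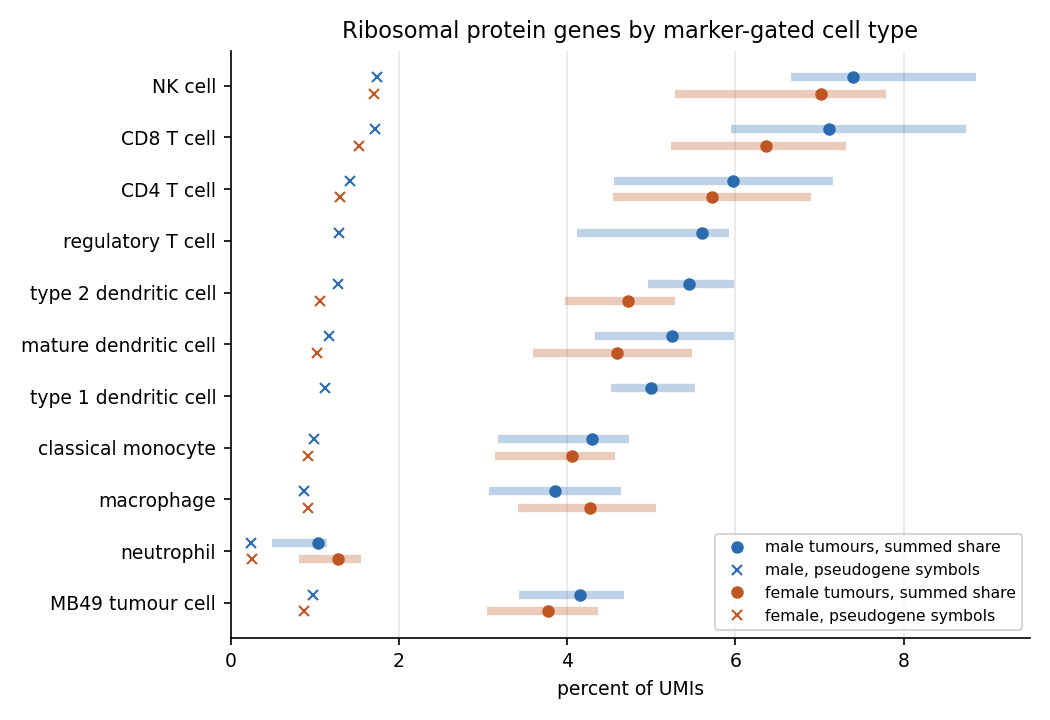
Share of all UMIs taken by the 91 ribosomal protein genes (percent) in each marker gate and library. Circles are shares of summed UMIs, pale bars the middle 50% of single cells, and crosses the share of pseudogene symbols. NK and CD8 T cells lie between 6.37 and 7.40%, and neutrophils at 1.04 and 1.27%, in both sexes.

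The number of members that shared in these differences varied by gate. Against macrophages, 79 of 87 members with enough UMIs were at least 1.5-fold lower in neutrophils in both sexes, where 52.6% of all genes tested were. In the neutrophil libraries themselves, 31 members and 1301 of all genes had enough UMIs to be compared between hosts. Most of the 87 members and of the 9489 genes tested thus entered by their macrophage UMIs, which favours lower calls in neutrophils. The median member difference was −1.93 and −1.88 on the log2 scale in male and female tumours, against −1.19 and −1.0 over all genes. The 8 exceptions were Rpl10, Rpl12, Rpl27, Rpl30, Rps12, Rps13, Rps27 and Rps27rt. All but Rpl30 have a coding sequence whose pieces all recur in other annotated transcripts, and Rpl30 shares 72.3% of them. All but Rps27rt held at most 3496 UMIs over all libraries. Such sharing was not particular to these 8. Their place as exceptions carries the uncertainty of read assignment, whose part was not tested. In NK cells 44 of 87 members were at least 1.5-fold higher than in macrophages in both sexes (19.2% of all genes), in CD8 T cells 34 (23.2%) and in CD4 T cells 19 (19.1%), the last close to the background. In type 2 dendritic cells no member was (7.85% of all genes), and in tumour cells 5 were (38.9%), a smaller share than over all genes. Between hosts, 56 members had enough UMIs in NK, 60 in CD8 T, 57 in CD4 T and 61 in type 2 dendritic cells. In these gates, too, some of the 87 members thus entered by their macrophage UMIs.

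The named members show the size of the range. Rps26 had 741 and 788 CPM in male and female neutrophils, 2614 and 3173 CPM in macrophages, 2509 and 2572 CPM in tumour cells and 4629 and 4147 CPM in NK cells. Rps9, a primary binder of the small-subunit RNA, had 921 and 1008 CPM in neutrophils and 3553 and 3162 CPM in NK cells. For both genes the neutrophil values were the lowest and did not overlap those of macrophages, NK cells or tumour cells in either sex. Rps9 fell less than the family, and so took 8.86 and 7.92% of the family's UMIs in neutrophils against 3.82 to 6.05% in macrophages, NK cells and tumour cells.

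Set against the family's own total, most of the members well counted in every gate kept a steady part. Of the 35 of 91 members with at least 20 UMIs in every compared gate and library, 32 varied by less than 2-fold between gates in their share of the family. Rps15, a small-subunit protein whose tail reaches the decoding site, was the most even of them, at 1.59 to 1.96% of family UMIs over 20 combinations of gate and library, followed by Rps14 (range 0.23 on the log2 scale) and Rps10 (0.32). The 3 that varied more were Rps3a1 (1.51), Rps27rt (1.40) and Rps19 (1.03), and the first 2 of these have a near-identical copy. Among the members outside these 35, ranges ran from 0.37 (Rpl39) to 7.65 (Rpl3l), the latter with very few UMIs. The same count over all genes is not given, so the steadiness cannot be called particular to the family. Small-subunit genes held 57.0 to 62.05% of the UMIs of the usual genes in every gate, with both tumour-cell libraries at the low end. Female neutrophils (57.7%) and male fibroblasts (57.8%) lay close to them. The usual genes leave out copies such as Rps3a2 and Rpl37rt, with 56473 and 111193 UMIs in male tumour cells. The part of such copies in this order was not tested.

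A member was taken to depart in a gate when its share of family UMIs lay at least 2-fold from its median over gates, in each library with enough cells. There were 12 such pairs of member and gate among 11 members, 8 of them in tumour cells. A lower call needed at least 20 expected UMIs, and a higher call at least 20 counted ones, in each library. The tumour-cell gates held 2505851 and 1626796 family UMIs, against 7700 and 2374 in neutrophils. Scarce members could thus be called lower almost only in large gates, so the number in tumour cells is partly set by the rule. With 0.5 UMI added to each count, gates without UMIs of a member also entered its median. On shares of all UMIs, 1 of 90 members was at least 2-fold above the median gate in tumour cells (21.1% of all genes were) and 4 were below it (13.6%). Only 2 of the 11 members, Rps3a1 and Rpl10, belong to the usual 77. The Rpl10 departure, in male regulatory T cells, rested on 6 UMIs in 1 library.

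The strongest upward departure was Rps3a2 in tumour cells, at 3.62 and 3.38 on the log2 scale in male and female tumours, with Rps3a1 at −1.20 and −1.30. Rps3a, a small-subunit protein, is the product of Rps3a1, and the annotation gives Rps3a2 as a processed pseudogene. Tumour cells held 935 and 721 CPM of Rps3a2 and 496 and 422 CPM of Rps3a1. Macrophages held 66.5 and 59.2 CPM of Rps3a2 and 1145 and 1084 CPM of Rps3a1. Rps3a2 thus made up 65.3% (65.0 to 65.7) of UMIs of the pair in male and 63.1% (62.7 to 63.5) in female tumour cells, and 5.49 and 5.18% in macrophages. Among tumour cells with at least 10 UMIs of the pair, 3304 of 3341 male and 2187 of 2231 female cells had over 30% from Rps3a2, and the median cell had 65.7 and 63.9%. The fibroblasts of the same CD45-negative libraries had 8.26% (9 of 109 UMIs, interval 3.85 to 15.1) and 4.46% (5 of 112, 1.47 to 10.1). The sum of the Rps3a genes was 3.49 and 3.05% of the family in tumour cells, within the 1.98 to 3.51% of other gates. The 2 tumour-cell libraries were thus close in this ratio and far from every other gate. Rps3a1 shares 75.8% and Rps3a2 86.4% of its coding-sequence pieces with other annotated transcripts. The levels and percentages of this pair, here and below, thus carry the uncertainty of read assignment, whose part was not tested.

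Immune gates had 2.13 to 7.46% of the pair from Rps3a2, with 2 exceptions: female monocytes at 17.1% (15.4 to 18.9) and male mature dendritic cells at 12.8% (11.1 to 14.7). These gates also held more tumour marker UMIs, 814 CPM in female monocytes against 10.2 CPM in male ones and 496 CPM in male mature dendritic cells against 28.0 CPM in female ones. They were not alone in this. Male NK cells held 384 CPM with 7.46% from Rps3a2, against 11.4 CPM and 4.68% in female ones. Male and female CD4 T cells held 158 and 258 CPM with 7.27 and 5.89%. In male mature dendritic cells 1 cell held 53 UMIs, or 30.5%, of the Rps3a2 counts. With every immune cell that held any tumour marker UMI left out, 39 of 263 female monocytes and 9 of 140 male mature dendritic cells among them, the values became 4.83 and 3.87%, and all immune gates lay between 2.33 and 7.46%.

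**Figure D3:**
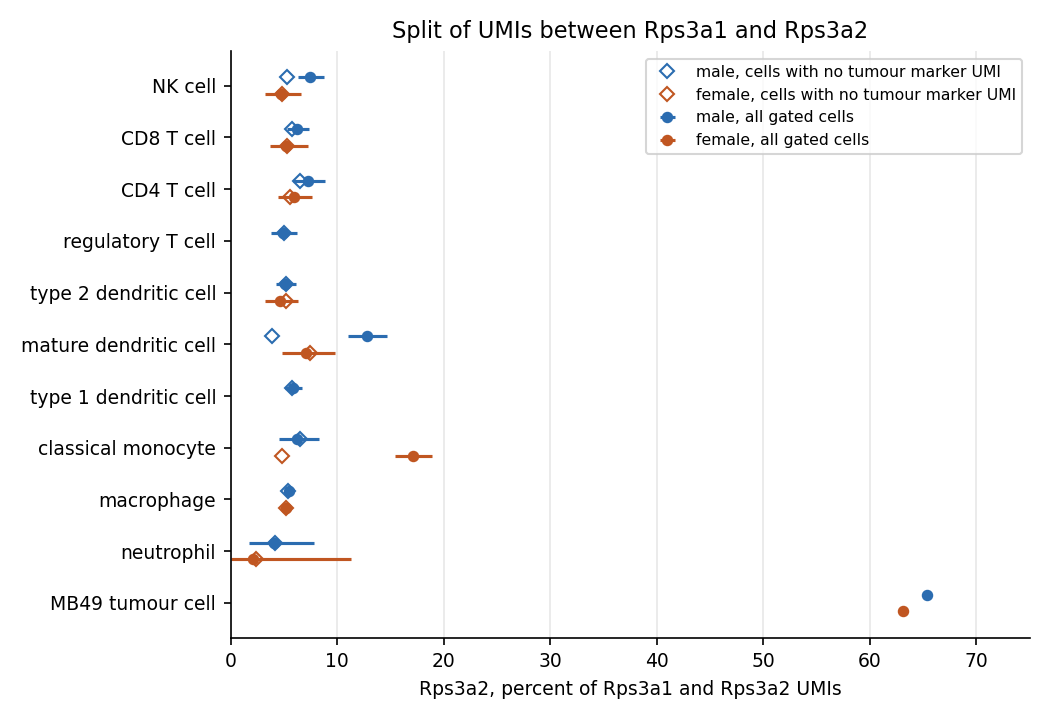
Percent of Rps3a1 and Rps3a2 UMIs that were assigned to Rps3a2, by gate and library, with exact 95% intervals for counting error. Filled circles are all gated cells and open diamonds the immune cells with no tumour marker UMI. Tumour cells lie at 65.3 and 63.1%, and every immune gate lies under 18%.

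The opposite pattern was that of Rps4l, which was scarce in tumour cells: 7 UMIs in male and 16 in female cells, or 0.116 and 0.372 CPM, against 5.73 and 8.66 CPM in macrophages and 21.5 and 8.57 CPM in NK cells. Its partner Rps4x had 95347 and 71673 UMIs in the same tumour cells, and both libraries fell on the same side (−6.07 and −4.31 on the log2 scale). Rps4l was also scarce in CD4 T cells, with none of 1940 Rps4 UMIs in male cells (interval up to 0.19%) and 1 of 1494 in female cells, and female CD8 T cells had 1 of 1074. The tumour-cell shares of 0.00734 and 0.0223% lie within the intervals of these 3. Rpl3l, known as the striated-muscle form of the peptidyl-transferase protein Rpl3, had 10 and 2 UMIs in tumour cells. In mature dendritic cells it had 20 and 6 UMIs, which was 27.8% (17.9 to 39.6) and 24.0% (9.36 to 45.1) of the Rpl3 pair. Male neutrophils had 9 of 11 UMIs of the pair (81.8%, 48.2 to 97.7) and female ones 0 of 2. Monocytes had 10.0 and 11.0%, while macrophages had 1.48 and 2.29%. Rpl3 shares 93.4% of its coding-sequence pieces with other annotated transcripts, and Rpl3l shares none. Over all libraries Rpl3 held 9535 UMIs, and the other genes that hold its pieces 82248. The percentages of this pair thus carry the uncertainty of read assignment, whose part was not tested. Rpl39l, known as a testis form of Rpl39, had 8 and 15 UMIs in tumour cells against 18355 and 12702 for Rpl39. Counts of Rpl3l and Rpl39l were too few to place their levels closely.

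Rpl22l1, the paralogue of the large-subunit protein Rpl22, departed upward in tumour cells (1.33 and 1.20). It had 158 and 131 CPM there and 79.4 and 68.4 CPM in macrophages, and it made up 29.6% (29.1 to 30.1) and 26.9% (26.3 to 27.5) of the Rpl22 pair in tumour cells against 6.88 to 14.2% in the other gates. Male NK cells had more of it as CPM than tumour cells of either library, 162 CPM, but beside a larger amount of Rpl22. Rpl36al, the autosomal partner of the X-linked Rpl36a (87.7% identity), had 19.8 and 20.4 CPM in tumour cells, and its departure there (1.06 and 1.24) was the smallest of the 12. Rps19bp1 had 34.8 and 25.1 CPM in tumour cells against 12.4 and 13.1 CPM in macrophages (1.68 and 1.35).

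Rps27l, a p53-responsive paralogue of Rps27, departed downward in both cytotoxic lymphocyte gates. Its share lay at −1.31 and −1.28 in CD8 T cells and −1.39 and −1.17 in NK cells. Levels were 137 and 125 CPM in CD8 T cells and 135 and 149 CPM in NK cells. Low detection was not particular to these gates. Rps27l was found in 20.6 and 28.2% of male and female CD4 T cells, 24.5 and 26.7% of CD8 T cells and 37.7 and 37.5% of NK cells. In male CD4 T cells 1 cell held 21.6% of the Rps27l UMIs. Levels by CPM differed more widely between lymphocytes and other gates. Rps27l levels were 465 and 576 CPM in mature dendritic cells, the highest of all gates, and 271 and 324 CPM in type 2 dendritic cells. They were 190 and 201 CPM in macrophages and 239 and 201 CPM in tumour cells. Neutrophils had the lowest level, 67.5 and 59.0 CPM, but not relative to the family. Among gates with at least 50 cells, lymphocytes and dendritic cells did not overlap for this gene, since every T and NK value was at or under 187 CPM and every dendritic value at or over 271 CPM. Rpl7l1, a nucleolar relative of Rpl7, was low in NK cells (44.4 and 31.4 CPM from 31 and 11 UMIs) against 73.9 and 74.3 CPM in macrophages.

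**Figure D4:**
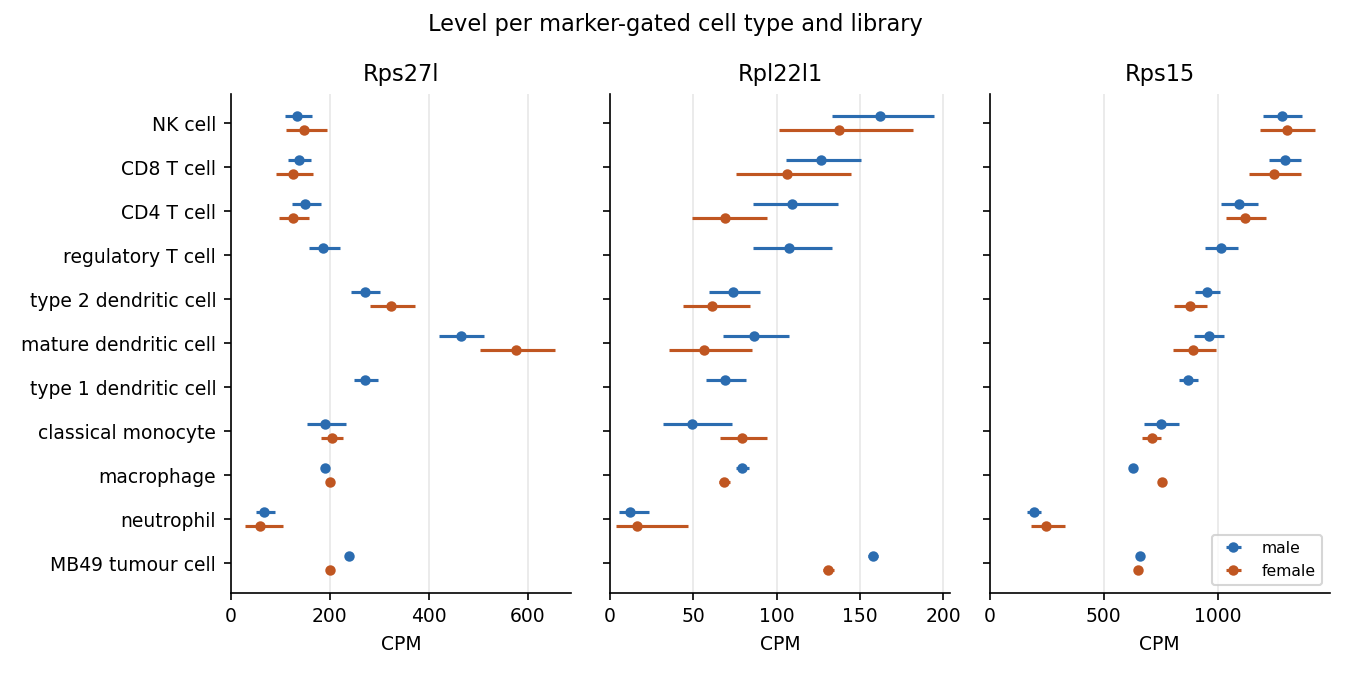
Levels of Rps27l, Rpl22l1 and Rps15 (CPM) by gate and library, with exact 95% Poisson intervals for counting error. Rps15 runs from neutrophils up to NK and CD8 T cells as the family does, Rps27l is highest in mature dendritic cells at 465 and 576 CPM, and Rpl22l1 is high in both tumour cells and NK cells.

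Between hosts, the family's share was higher in male tumours in 7 of 9 gates with at least 50 cells in each library. The male:female ratio of shares was 1.15 (1.14 to 1.17) in type 2 dendritic cells, 1.14 (1.12 to 1.16) in mature dendritic cells, 1.12 (1.10 to 1.13) in CD8 T cells and 1.098 (1.096 to 1.100) in tumour cells. It was 1.06 in monocytes, 1.06 in NK cells and 1.04 in CD4 T cells. In macrophages the share was 1.11 times (1.10 to 1.11) and in neutrophils 1.22 times (1.17 to 1.28) higher in female tumours. The differences were small beside those between cell types, and their spread between animals is unknown. C1q transcripts in the same CD8 T cells stood at 571 CPM in male and 1151 CPM in female tumours, and in NK cells at 463 and 1248 CPM; their part in these ratios was not tested. The fibroblast markers named above for the female mature dendritic and monocyte gates likewise stand beside their lower shares, and their part was not tested.

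Few single members differed by 1.5-fold or more between hosts. Over the 9 gates there were 550 pairs of member and gate with at least 100 UMIs, of which 18 (3.27%) were higher in male tumours, against 6.87% over all genes, and 10 (1.82%) were higher in female tumours, against 7.65%. Both member shares lie under the background, which was not matched to the members in count.

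In tumour cells 64 of 87 members lay on the male side and 23 on the female side, with a median log2 ratio of 0.15 against 0.01 for all genes. Only Rps3a3 and Rpl30 passed 1.5-fold, 2 of 87 beside 7.08% of all genes higher in male tumours, and no member passed it on the female side (7.67%). Rps3a3, a further Rps3a copy annotated as a processed pseudogene, had 16.2 CPM in male and 8.29 CPM in female tumour cells (ratio 1.96, 1.73 to 2.22). Rpl30, a large-subunit protein, had 20.2 and 10.9 CPM (1.86, 1.67 to 2.07). The next in size was Rpl14, with 526 and 359 CPM (1.46), and on the other side stood Rps20, at 773 and 941 CPM (0.821, 0.810 to 0.832). Rpl30 and Rps3a3 are low-count genes with close copies, so their ratios carry the uncertainty of read assignment.

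In macrophages the balance was the reverse, with 21 of 87 members on the male and 66 on the female side and a median of −0.09 against −0.01 for all genes. None passed 1.5-fold on the male side (7.17% of genes), and 2 did on the female side (6.14%). These were Rpl36al, with 13.3 and 20.7 CPM (1.56 times higher in female tumours), and Rps4l, with 5.73 and 8.66 CPM (1.51 times). Rpl6, a large-subunit protein, went the other way with 68.9 and 53.2 CPM (1.29). In neutrophils, where 31 members had enough UMIs, 26 lay on the female side and the median was −0.29 against −0.04. Rps18 (112 and 214 CPM), Rpl37rt (311 and 552 CPM), Rpl8 (288 and 450 CPM) and Rps4x (ratio 0.643, 0.492 to 0.846) passed on the female side, 4 of 31 beside 10.8% of genes. Rpl7 alone passed on the male side (5.23%), with 140 and 69.7 CPM from 104 and 13 UMIs.

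In dendritic cells nearly all members leaned to the male side, 52 of 61 in the type 2 gate and 48 of 51 in the mature gate, with medians of 0.21 and 0.23 against −0.02 and 0.03 for all genes. In type 2 dendritic cells 4 of 61 members passed on the male side (6.80% of genes) and none on the female side (7.47%). They were Rps7 (72.7 and 31.4 CPM, 2.31), Rpl6 (98.2 and 50.3 CPM, 1.95), Rpsa, the laminin-receptor-related small-subunit protein (633 and 392 CPM, 1.62), and Rps3a2 (1.56). In mature dendritic cells 3 of 51 passed on the male side (8.39%) and none on the female side (9.34%): Rps3a2 (2.46), Rpl6 (95 and 43.3 CPM, 2.20) and Rpl7 (917 and 586 CPM, 1.57). In monocytes 1 of 60 passed on the male side, Rpl7l1 (5.34% of genes), and 4 on the female side (13.5%), Rps3a2, Rpl22l1, Rpl35a and Rpl31.

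Among lymphocytes the lean to the male side was clearest in CD8 T cells and least in NK cells. In CD8 T cells 51 of 60 members lay on the male side (median 0.17 against 0.02), and 4 passed 1.5-fold there (6.31% of genes) with none on the female side (5.99%). Rpl6 had 116 and 66.3 CPM (1.75, 1.13 to 2.81), and Rps3a2, Rpsa and Rpl3 were the others. In CD4 T cells 41 of 57 lay on the male side (median 0.12 against 0.01). There 1 of 57 passed on the male side (4.45%), Rpl22l1 with 109 and 68.8 CPM (1.59, 1.06 to 2.40), and none on the female side (5.41%). In NK cells 2 of 56 passed on the male side (9.92%), Rps3a2 and Rpl6l, with none on the female side (6.69%), and members split 34 to the male and 22 to the female side with a median log2 ratio of 0.05 against 0.02 for all genes. The interval of the Rpl3 ratio in CD8 T cells, 0.964 to 2.53, includes equal levels.

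The Rps3a2 ratios between hosts moved with the tumour marker UMIs described above. With all immune cells that held a tumour marker UMI left out, the male:female ratio went from 0.450 to 1.71 in monocytes and from 2.46 to 0.678 in mature dendritic cells, so both changed direction. It went from 2.17 to 1.55 in NK cells, from 1.61 to 1.5 in CD8 T cells and from 1.56 to 1.42 in type 2 dendritic cells.

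**Figure D5:**
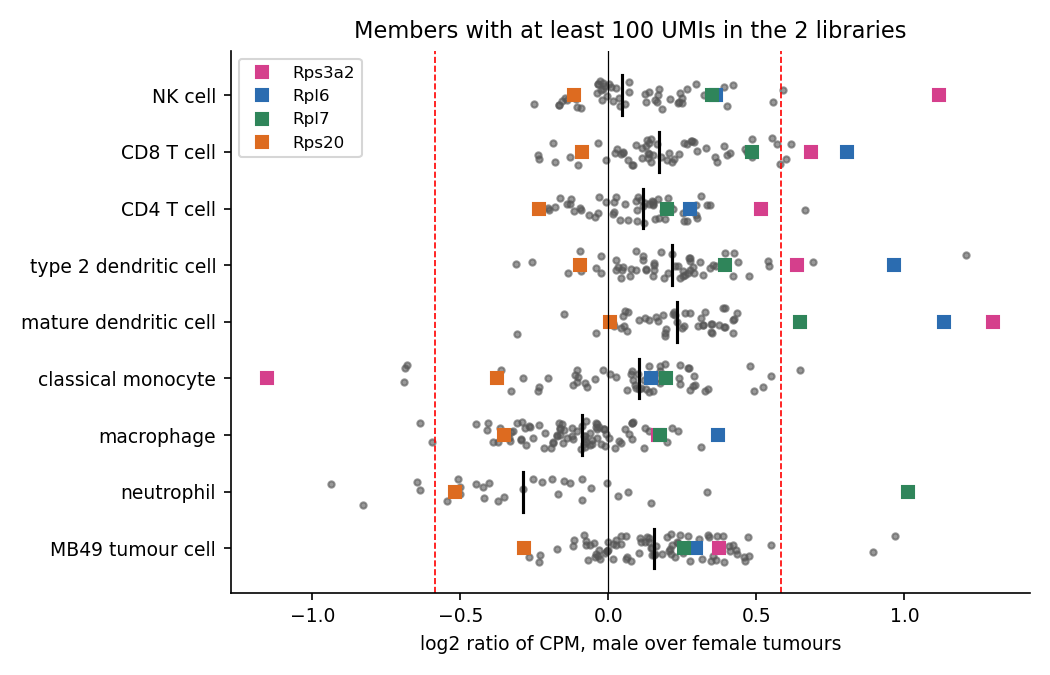
Log2 male:female ratio of CPM for each member with at least 100 UMIs in the 2 libraries of a gate. Grey points are the other members, spread vertically for legibility, black bars the median of all members, dashed lines mark 1.5-fold, and coloured squares are Rps3a2, Rpl6, Rpl7 and Rps20, all over all immune cells. Medians lie right of 0 except in macrophages and neutrophils.

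Some members kept a side throughout when taken as a share of the family. Of 31 members measured in all 9 gates, 4 took a larger part of the family in male tumours in every gate, Rpl7, Rps3, Rps3a1 and Rps9, and 7 did so in female tumours, among them Rpl26, Rpl34, Rpl37, Rps15, Rps15a and Rps20. This scale is centred on the family. On shares of all UMIs, 2 of the 31 (Rpl7 and Rps3a1) were higher in male tumours in all 9 gates, where 18 of 732 genes were (2.46%), and no member was higher in female tumours in all 9, where 29 genes were (3.96%). Rps20, a small-subunit protein, made up 2.23% of family UMIs in male and 2.58% in female macrophages, 1.86 and 2.49% in tumour cells, 2.25 and 2.67% in CD8 T cells, 2.47 and 2.83% in NK cells and 1.73 and 2.02% in neutrophils. Its log2 difference ran from −0.46 to −0.19, while that of Rps3 ran from 0.06 to 0.23 and that of Rps9 from 0.06 to 0.28. Of these, Rps3 shares no 75-base piece of coding sequence with another gene. The 8 immune gates come from the same 2 libraries and are not independent, while the tumour-cell gate comes from the other 2.

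The X-linked members Rpl10, Rpl36a, Rpl39 and Rps4x did not move together. Rps4x ran from 0.643 in neutrophils to 1.15 in CD8 T cells and was 0.948 in both macrophages and tumour cells. Rpl39 ran from 0.772 in monocytes to 1.26 in CD8 T cells and was 1.03 in tumour cells. Rpl10 had enough UMIs in 2 gates, with 1.05 in macrophages and 1.04 in tumour cells, and Rpl36a in the same 2, with 1.02 and 1.11. All 4 intervals of Rpl10 and Rpl36a include equal levels.

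The family's share was also set beside the cell cycle, with cells holding at least 4 of 7 cycling markers against those holding at most 1. In tumour cells the share was 4.23% in cycling and 3.87% in other cells of the male library, and 3.82 and 3.70% in the female one. Cycling CD8 T cells had less than the others, 6.18 against 7.65% in male and 6.03 against 6.46% in female tumours. In NK cells the 2 libraries differed, with 6.45 against 8.02% in male (31 and 101 cells) and 7.19 against 7.03% in female tumours (4 and 81 cells, with intervals that overlap). CD4 T cells differed too, with 5.67 against 6.15% in male and 5.86 against 5.63% in female tumours. Cycling regulatory T cells had more, 6.35 against 4.83% in male tumours (35 and 115 cells) and 5.01 against 4.47% in female ones (7 and 37 cells). In macrophages the 2 groups differed by 0.01 on the log2 scale in each library. Cycling cells were deeper in every gate, for instance with a median of 4910 against 1899 UMIs in male CD8 T cells, and the part of depth was not tested.

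Other genes of the translation machinery were counted from lists. Rack1, a scaffold on the small subunit that the name rule leaves out, passed 1.5-fold between hosts in no gate. It followed the family between cell types, with 1855 and 2002 CPM in NK cells, 887 and 1035 CPM in tumour cells and 178 and 182 CPM in neutrophils. The 16 elongation factors and other genes with pyrimidine-tract mRNAs took 1.52 and 1.41% of UMIs in NK cells and 0.221 and 0.276% in neutrophils. They gave 4 calls higher in male (3.08%) and none in female tumours of 130 pairs, namely Naca in 3 gates and Npm1 in NK cells. Over all genes the shares were 6.87 and 7.65%. The 12 initiation factors did not follow the family in neutrophils, where they took 0.583 and 0.534%, against 0.483 and 0.530% in macrophages. They gave 2 calls in each direction among 90 pairs (2.22%), under those shares.

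The 31 ribosome biogenesis genes took 0.369 and 0.319% of UMIs in tumour cells, 0.196 and 0.214% in macrophages and 0.0749 and 0.106% in neutrophils. They gave 8 male (7.02%) and 2 female calls (1.75%) among 114 pairs, the male share near the 6.87% of all genes and the female one under their 7.65%. In NK cells 4 of 9 were male calls, Nop58, Dkc1, Nop10 and Nolc1, where 9.92% of all genes were. In tumour cells Nop10, of the particle that guides pseudouridylation, had 281 and 155 CPM (1.82). The mitochondrial ribosomal proteins gave 9 male (4.35%) and 1 female call among 207 pairs, both shares under those of all genes. In tumour cells 5 of 76 (6.58%) were male calls, near the 7.08% of all genes, with Mrps33 at 32.3 and 18.0 CPM (1.79). The 7 regulators gave no male and 9 female calls (30.0%) among 30 pairs, 6 of them Mdm2, the p53 ligase that binds free ribosomal proteins. Mdm2 stood at 228 and 546 CPM in tumour cells and 111 and 234 CPM in macrophages. Myc, a driver of ribosome production, had 187 and 291 CPM in tumour cells (0.644), where the family's share was higher in the male library. The 8 p53 targets, of which Mdm2 is 1, gave no male and 14 female calls (33.3%) among 42 pairs, and Cdkn1a stood at 298 and 546 CPM in tumour cells. Rps27l did not pass 1.5-fold in any gate.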

How the data were processed

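The authors deposited whole-number UMI counts by gene symbol and cell, without normalization, and these counts were used as they stand. Per the submitters' processing notes, CASAVA 1.8, UMI-tools and Seurat were used with the build mm10; the sources used here do not give the aligner, the handling of reads with several matches or any doublet removal. Per the labels' protocols, transcripts were tagged at their 3′ end. A gene not listed in a library was taken as 0.

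Barcodes needed 500 UMIs and 250 genes or more, and no more than 25% of UMIs from mitochondrial genes. Gates needed a set number of markers of 1 class and few of others, for example at least 60 macrophage marker UMIs per 10000 and 5 macrophage markers, at least 3 T cell markers with Cd8, Cd4 or Foxp3, 2 NK markers, or 2 tumour markers without Ptprc; cells that met 2 gates were left out, 23 and 29 in the CD45-positive libraries. Gate thresholds were set after marker counts had been seen. No doublet caller was run; leaving out the deepest 5% of cells is an alternative.

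Counts were summed over the cells of a gate and library and given as shares or CPM, with exact Clopper-Pearson or Poisson intervals, and ratios with exact conditional binomial intervals (Python 3.11.15, numpy 2.4.6, scipy 1.17.1, pandas 2.3.3). A ratio counts as passing at 1.5-fold among genes with at least 100 UMIs in the 2 libraries. The scripts were tested on simulated data with known fold changes. Coding sequences are from GENCODE M21.

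Named genes are the 10 with most UMIs, the 12 largest departures, the 3 highest and lowest ratios per gate, and the paralogues and X-linked members with their partners; genes named for sharing sequence, for an even share or for keeping a side, and other genes past 1.5-fold, were chosen after their values were seen. The members and lists were chosen with earlier results of these data known. The alternatives changed the cell filter, gate, weighting, denominator, member set, fold and minimum; 4 were added after the data were seen. Some items are not reported here.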

Additional observations from a re-analysis of the deposited data

Results flagged for a closer look

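The difference between hosts in the family's share ran in opposite directions in different gates. The log2 male:female ratio was 0.08 in monocytes, 0.20 in type 2 dendritic cells, 0.19 in mature dendritic cells, 0.16 in CD8 T cells, 0.06 in CD4 T cells, 0.08 in NK cells and 0.13 in tumour cells, and −0.14 in macrophages and −0.29 in neutrophils. With 1 library per group the difference between gates was not tested.

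The difference between cycling and other cells also went opposite ways, at −0.31 and −0.10 on the log2 scale in male and female CD8 T cells and 0.40 and 0.16 in male and female regulatory T cells. In NK cells it was −0.32 and 0.03, and in CD4 T cells −0.12 and 0.06. It was not tested, and the female regulatory value rests on 7 cycling cells.

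Symbols marked as ribosomal protein pseudogenes, which no comparison of members used, held 1752901 UMIs over the 4 libraries, and 0.867 to 0.998% of the UMIs of kept cells.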

How the results depend on the processing

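No paired analysis was possible because each group has 1 library. The log2 male:female ratio of the family's share kept its direction in all 9 gates under each of the 10 alternatives. Values that moved by more than counting error follow. With the stricter gate it was 0.15 in monocytes, 0.17 in type 2 and 0.22 in mature dendritic cells, 0.03 in CD4 T cells and 0.14 in tumour cells, and the NK to neutrophil ratio 7.45 in male and 5.93 in female tumours. Without the deepest 5% of cells it was 0.24 in type 2 dendritic cells, −0.45 in neutrophils, 0.20 in CD8 T cells and 0.17 in NK cells, and the NK to neutrophil ratio 8.94 and 5.84. As a mean over cells it was −0.13 in macrophages, 0.05 in monocytes, 0.23 in type 2 and 0.15 in mature dendritic cells, −0.45 in neutrophils, 0.20 in CD8 T cells, 0.21 in NK cells and 0.11 in tumour cells, and the male NK to neutrophil ratio was 8.56. Without mitochondrial UMIs it was −0.13 in macrophages and 0.14 in tumour cells, with a male NK to neutrophil ratio of 7.34. With only the usual 77 genes it was 0.13 in tumour cells. With close copies added it was −0.13 in macrophages and 0.16 in tumour cells. Without immune cells that held a tumour marker UMI it was −0.13 in macrophages, 0.16 in mature dendritic cells, 0.18 in CD8 T cells and 0.13 in NK cells, with a male NK to neutrophil ratio of 7.39. Without the 20 most abundant other genes it was −0.11 in macrophages, 0.12 in monocytes, 0.23 in type 2 dendritic cells, −0.22 in neutrophils and 0.14 in tumour cells, with NK to neutrophil ratios of 6.25 and 5.13.

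The 18 male and 10 female calls of members became 12 and 3 with the stricter gate, 11 and 5 as shares of the family, 94 and 36 at the lower fold tried and 5 and 1 at 2-fold. The 12 departures became 25 at 1.5-fold and 4 at 3-fold, and 8 with a minimum of 100 UMIs, which dropped Rpl10, Rpl39l, Rpl3l and Rpl7l1. Rpl36al was lost with the stricter gate (mean log2 0.87) and without the deepest cells (0.95). Rpl39l was lost with the filter of 1000 UMIs (−1.75) and without the deepest cells (−1.42), and Rpl10 without the deepest cells (−1.82), their means staying past 2-fold. The log2 ratio of Rps3a2 turned from −1.15 to 0.77 in monocytes and from 1.30 to −0.56 in mature dendritic cells without cells that held a tumour marker UMI, and fell from 0.64 to 0.50 in type 2 dendritic cells. Without those cells, the mature and type 2 dendritic intervals include equal levels. Other causes were not tested. Depth limits neutrophils most, where 31 members reached 100 UMIs.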
